A study of Mus musculus with 32 samples.

Results

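The Notch pathway was followed here in ribosome footprints of neural stem cells (NSCs) treated with interferon-β (IFN-β), through 10 genes chosen by name among the 23035 genes of the footprint tables. They are the receptors Notch1, Notch2 and Notch3, the ligands Dll1, Dll3 and Jag1, the DNA-binding mediator Rbpj and the target genes Hes1, Hes5 and Hey1. All 10 symbols matched an Ensembl identifier of the tables, and all 10 passed the filter on low counts in footprints at both times.

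Notch signalling passes between touching cells. A ligand on one cell (Dll1 or Jag1) binds a Notch receptor on its neighbour, ADAM proteases and the γ-secretase complex cleave the receptor, and the freed intracellular domain joins RBPJ in the nucleus to switch on the repressor genes of the Hes and Hey families. In the ventricular-subventricular zone (vSVZ) of the adult brain this pathway is known for keeping stem cells undifferentiated and for holding them in quiescence, while its ligand Dll1 is carried by cells that leave that state. Dll3, unlike the other ligands, acts inside the cell and does not activate receptors on neighbours.

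The NSCs came from the vSVZ of male C57BL/6 mice of 8 to 12 weeks and were grown ex vivo with EGF and FGF. Exposure to IFN-β or to vehicle, albumin in PBS, lasted 2 h or 14 h, and all groups received cycloheximide shortly before harvest. Each of the 4 groups held 4 cultures, and each culture gave a footprint library (ribosome-protected fragments, counted in coding sequence, CDS) and a total RNA library of the same lysate (counted over the whole gene), 32 libraries in all. The cells were cultured outside their niche, and a bulk library cannot tell fewer cells with a transcript from less transcript per cell.

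Total counts were 2956297 to 10505108 per footprint library, 3992402 to 7877753 per total RNA library at 2 h and 1370008 to 2737111 at 14 h. Footprint values are given as CPM, counts scaled to a common library size with TMM, a factor that evens out library composition. The stem cell markers Nes and Sox2 were read in every footprint library, with at least 8315 and 646 footprints, whereas Gfap had 1 to 3 footprints per library with vehicle at 14 h. The 7 microglial markers summed to 11.8 to 45.4 CPM over all libraries, the 6 endothelial markers to 10.7 to 41.7, the 6 neuroblast or neuron markers to 59.2 to 137.6, the 6 oligodendrocyte lineage markers to 1.84 to 36.4 and the 5 pericyte markers to at most 1.43, against 10336 to 18232 for the 10 stem cell markers. The neuroblast or neuron markers were at 86.2 to 100.4 CPM in vehicle and 103.6 to 137.6 in treated cultures of 2 h, without overlap, and at 59.2 to 65.7 and 62.6 to 73.9 at 14 h. The endothelial markers were at 10.7 to 23.8 and 17.9 to 41.7 at 2 h and at 13.7 to 17.2 and 15.1 to 20.4 at 14 h. Both lists were higher with IFN-β in all 4 pairs at both times, the pericyte markers in all 4 at 2 h (0.138 to 0.416 and 0.427 to 1.43 CPM) and the microglial markers in 3 of 4 at 2 h and all 4 at 14 h. The stem cell markers were higher in all 4 pairs at 2 h and lower in all 4 at 14 h. Few genes carried the sums of the other lists. At 2 h median endothelial Kdr rose from 6.85 to 18.5 CPM and Flt1 from 11.5 to 14.5. Tek went from 0.746 to 0.667, and Pecam1, Cldn5 and Cdh5 reached at most 0.430 CPM in any library. Median Tubb3 rose from 52.3 to 78.6 CPM at 2 h. Dcx fell from 2.52 to 1.93 and Nrxn3 from 28.5 to 24.8, and the other neuroblast or neuron markers rose. Pericyte genes had at most 5 footprints per library. The part of cell content in these sums and in the results below was not tested. Microglial Aif1 and Cx3cr1 were at 0 in all groups, and Csf1r, Ptprc and Tmem119 reached at most 0.656 CPM. Itgam and P2ry12 carried the microglial sum, with group medians of 19.1 to 31.8 and 2.33 to 22.4 CPM. At 14 h median Itgam was at 31.8 with vehicle and 19.1 with IFN-β, and P2ry12 at 7.72 and 22.4. A list of 6 interferon-stimulated genes summed to 46.1 to 67.2 CPM in vehicle and 1822 to 4087 in treated cultures of 2 h, and to 24.7 to 31.9 and 4376 to 5382 in those of 14 h, so the treatment labels match this readout.

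The cultures numbered 3 at 2 h stood apart in both arms. Gfap, a marker of astrocytes and quiescent NSCs, was at 113.3 CPM in vehicle culture 3 against 0.689 to 4.92 in the other vehicle cultures, and at 467.6 against 46.6 to 76.9 with IFN-β. Footprints of Nes were at 1661 and 1693 CPM in the vehicle and IFN-β culture 3, against 2535 to 3582 in the other 6 libraries. The oligodendrocyte lineage markers were at 36.4 and 24.4 there, against 7.13 to 12.3. Dll1, Dll3, Hes5, Hey1, Notch1 and Notch3 were also highest, and Hes1 and Jag1 lowest, in culture 3 of each arm. Over 10232 genes both cultures numbered 3 deviated together from the means of their groups (Pearson r = 0.86). The share of all genes at an extreme there was not counted. The part of this culture's state in the results below was not tested, and results at 2 h are therefore given with the culture number as a block and also without both cultures.

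The regions in front of 2 genes are shown first, because Hes5 and Dll1 had the largest log2 fold changes of footprints at 2 h and because RBPJ acts at such sites. They are the 250 bases before the RefSeq start, in build GRCm38.p6. Capitals mark a match to GTGGGAA, the letters of the classic RBPJ site, on either strand. Hes5 lies at chr4:154960923-154962371 on the plus strand and Dll1 at chr17:15367354-15376872 on the minus strand, and of 2 RefSeq starts of Dll1 the one nearest its annotated 5′ end was taken.
Hes5, chr4:154960673-154960922, plus strand: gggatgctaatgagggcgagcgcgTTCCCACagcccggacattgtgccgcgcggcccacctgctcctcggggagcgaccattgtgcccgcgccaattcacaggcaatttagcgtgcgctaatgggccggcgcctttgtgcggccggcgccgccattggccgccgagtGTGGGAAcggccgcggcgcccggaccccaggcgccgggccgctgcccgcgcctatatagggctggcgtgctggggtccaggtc
Dll1, chr17:15376933-15377182, minus strand: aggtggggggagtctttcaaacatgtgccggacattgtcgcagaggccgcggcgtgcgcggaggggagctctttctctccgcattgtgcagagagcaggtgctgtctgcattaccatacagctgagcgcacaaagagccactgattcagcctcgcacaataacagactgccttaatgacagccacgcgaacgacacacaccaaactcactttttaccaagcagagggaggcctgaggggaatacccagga
The Hes5 window held 2 matches, 226 to 220 bases before the start on the minus strand and 83 to 77 bases before it on the plus strand. Of 32851 mouse windows of the same length, 5.42% held at least 1 match and 0.161% held more than 1. The Dll1 window held no match. Windows were found for 8 of the 10 genes (10 windows), all but Hes1 and Hey1, and apart from Hes5 none held GTGGGAA. The letters of the interferon-stimulated response element (GAAA, any 2 bases, GAAA, on either strand) were in none of the 10 windows and in 2.98% of all windows. With the response element absent, the 2 motifs could share no position in these windows. A match is a description of letters, not a bound site.

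With vehicle, footprint densities differed widely between the genes. In CPM per kilobase of CDS, vehicle libraries of 2 h gave 103.0 ± 24.9 (SD, n = 4) for Hey1, 100.2 ± 26.2 for Notch1, 72.0 ± 12.3 for Hes1, 56.3 ± 28 for Dll1, 47.0 ± 2.59 for Notch2 and 45.0 ± 1.04 for Rbpj. Lower on the same scale stood Hes5 at 26.5 ± 26.1, Jag1 at 23.0 ± 6.25, Notch3 at 21.6 ± 5.15 and Dll3 at 7.5 ± 4.93. The ranges of all neighbours in this order overlapped, except those of Notch3 (15.9 to 28.4) and Dll3 (3.70 to 14.7).

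With vehicle at 14 h the order was led by Hes1 at 100.0 ± 6.80 on this scale, followed by Notch1 at 56.9 ± 4.18, Rbpj at 34.8 ± 2.81, Notch2 at 32.9 ± 3.03, Jag1 at 28.3 ± 1.93, Hey1 at 26.3 ± 3.07, Dll1 at 21.4 ± 1.65, Notch3 at 14.9 ± 1.14, Hes5 at 5.18 ± 1.17 and Dll3 at 4.09 ± 0.438. The 4 libraries of Hes1 did not overlap those of Notch1, those of Notch1 did not overlap Rbpj, those of Dll1 did not overlap Notch3, and those of Notch3 did not overlap Hes5. The other neighbours overlapped. On the scale of CPM, all 4 vehicle libraries of 14 h lay below all 4 of 2 h for Hey1, Dll1, Hes5, Notch1, Notch2 and Rbpj, and above them for Hes1. The share of all genes whose vehicle groups separated in this way was not counted, so these separations cannot be called particular to the Notch genes. No label ties the cultures of the 2 times to each other, so time and set of cultures cannot be told apart in these levels.

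**Figure D1:**
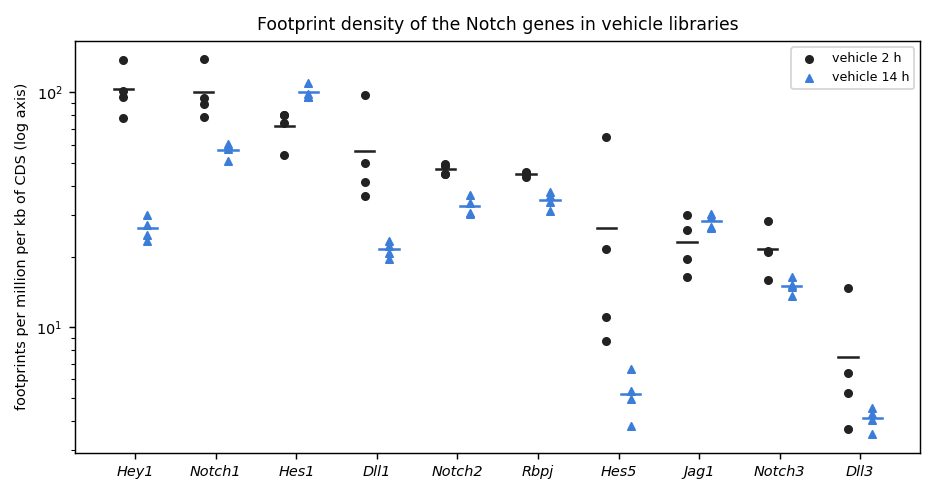
Footprint CPM per kilobase of CDS (log axis) of the 10 genes in the 4 vehicle libraries of 2 h (circles) and of 14 h (triangles), with a bar at each mean. Hey1 and Notch1 lead at 2 h with means of 103.0 and 100.2, Hes1 leads at 14 h with 100.0, and Dll3 is lowest at both times.

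After 2 h of IFN-β, 6 of the 10 genes had a lower footprint CPM in every treated culture than in the vehicle culture of the same number, as had 20.6% of all genes tested. Without the number in the model, 1 of the 10 genes passed edgeR's quasi-likelihood test at an adjusted p of 0.05, Notch2, which fell, where 7.25% of all 12104 genes tested were called in either direction and 2.01% were lower. With the culture number as a block, 7 of the 10 were called, 6 lower (Notch2, Dll1, Dll3, Jag1, Hes1 and Hes5) and 1 higher (Notch1), where 29.2% of all genes were called and 13.4% were lower. The median log2 fold change of the 10 genes was -0.45 in both models, beside -0.02 and -0.01 over all genes tested. Without the block, leaving out vehicle culture 3 alone brought it to -0.22, and leaving out treated culture 3 alone to -0.30. Without both cultures numbered 3 and without the block, 4 were lower (Notch2, Dll1, Hes1 and Hes5), where 5.36% of all genes were lower. With the block, the 6 lower genes remained called when any 1 of the 4 culture pairs was left out.

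Among the targets, Hes5, a repressor of neurogenic genes driven by Notch, had the largest log2 fold change. With vehicle at 2 h its footprints were at 5.53, 32.5, 4.39 and 10.7 CPM in cultures 2, 3, 5 and 6, from 33 to 234 footprints. With IFN-β they were at 0.764, 6.51, 1.57 and 2.01, from 6 to 32 footprints. Each treated culture was lower than the vehicle culture of its number, at 0.138 to 0.357 of it, while the treated culture 3 lay above 2 of the vehicle cultures, so that the groups overlapped. The log2 fold change was -2.40 ± 0.80 (SE) with an adjusted p of 0.136 without the block, and -2.29 ± 0.19 with an adjusted p of 1.9e-10 with it. Without cultures 3 it was -2.28 ± 0.42 (adjusted p = 0.0029), without the vehicle culture 3 alone -1.45 and without the treated culture 3 alone -3.23.

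Hes1, the repressor whose level marks Notch activity in many tissues, was at 62.6, 45.7, 67.6 and 67.8 CPM with vehicle in cultures 2, 3, 5 and 6. With IFN-β the values were 51.3, 29.7, 41.9 and 45.4. All 4 pairs were lower, and the groups overlapped through the low vehicle culture 3. The log2 fold change was -0.54 ± 0.17 (adjusted p = 0.121) without the block and -0.54 ± 0.07 (adjusted p = 1.1e-06) with it. Leaving out vehicle culture 3 alone gave -0.65 and an adjusted p of 0.0299. Hey1, a related repressor linked to quiescent NSCs, was at 69.8 to 123.0 CPM in vehicle and at 76.5 to 98.5 in treated cultures, with 2 pairs lower and 2 higher. Its log2 fold change was -0.08 ± 0.17 (adjusted p = 0.901), and -0.06 ± 0.06 (adjusted p = 0.547) with the block.

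Of the ligands, Dll1 had the next largest log2 fold change. Vehicle cultures 2, 3, 5 and 6 were at 78.5, 211.0, 89.7 and 108.7 CPM, and treated cultures 42.6, 103.8, 43.6 and 45.9. All 4 pairs were lower, at 0.423 to 0.543 of vehicle, and only the treated culture 3 lay within the range of vehicle. The log2 fold change was -1.07 ± 0.39 (adjusted p = 0.182) without the block and -1.05 ± 0.06 (adjusted p = 1.6e-13) with it. Without cultures 3 and without the block it was -1.08 ± 0.11 (adjusted p = 4e-05), without the treated culture 3 alone -1.49 (adjusted p = 0.0278) and without the vehicle culture 3 alone -0.66 (adjusted p = 0.328).

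Jag1, the Notch ligand of the Serrate family, was at 110.1, 59.6, 95.3 and 71.4 CPM with vehicle in cultures 2, 3, 5 and 6 and at 88.8, 30.3, 67.5 and 63.5 with IFN-β. All 4 pairs were lower and the groups overlapped. The log2 fold change was -0.43 ± 0.30 (adjusted p = 0.569), and -0.45 ± 0.08 (adjusted p = 6.3e-05) with the block. Without the block it was -0.65 when the treated culture 2 was left out, -0.27 without the vehicle culture 2 and -0.21 without the treated culture 3. Dll3 was read with 43 to 186 footprints per library at 2 h, at 6.49 to 25.8 CPM in vehicle and 5.60 to 18.9 in treated cultures. All 4 pairs were lower, and its log2 fold change was -0.49 ± 0.52 (adjusted p = 0.755), and -0.45 ± 0.13 (adjusted p = 0.009) with the block.

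The receptors did not move together. Notch2, which is linked to NSC quiescence, was at 332.1, 332.5, 369.1 and 361.2 CPM with vehicle and 255.5, 207.4, 269.3 and 283.9 with IFN-β, and every treated library lay below every vehicle library, as in 4.83% of all genes. The log2 fold change of Notch2 was -0.47 ± 0.10 (adjusted p = 0.0228), and -0.47 ± 0.05 (adjusted p = 1.8e-08) with the block. Without the block this call was lost when the vehicle culture 5 or 6 or the treated culture 2 or 5 was left out (adjusted p = 0.0623 to 0.0798, log2 fold change -0.44 to -0.50). Notch1 was at 600.5 to 1056 CPM with vehicle and 766.6 to 921.4 with IFN-β, with 3 pairs higher and culture 3 lower. Its log2 fold change was 0.13 ± 0.17 (adjusted p = 0.822), and 0.16 ± 0.06 (adjusted p = 0.0415) with the block, a call that was lost without pair 2, 5 or 6. Without the block it ranged from 0.037, without the vehicle culture 2, to 0.33, without the vehicle culture 3. Notch3 differed little within pairs, at 0.987 to 1.03 of vehicle, with a log2 fold change of -0.01 ± 0.21 (adjusted p = 0.995), and 0.00 ± 0.05 (adjusted p = 0.957) with the block.

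Rbpj, through which all Notch receptors act on DNA, was at 75.6 to 79.9 CPM in vehicle and at 70.1 to 87.4 in treated cultures of 2 h. The log2 fold change was 0.04 ± 0.09 (adjusted p = 0.921). At 14 h it was at 54.2 to 65.3 and 49.5 to 61.7, with a log2 fold change of -0.11 ± 0.07 (adjusted p = 0.225). It has processed pseudogenes elsewhere in the genome with which reads may be shared, so its counts are less certain than those of the others.

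**Figure D2:**
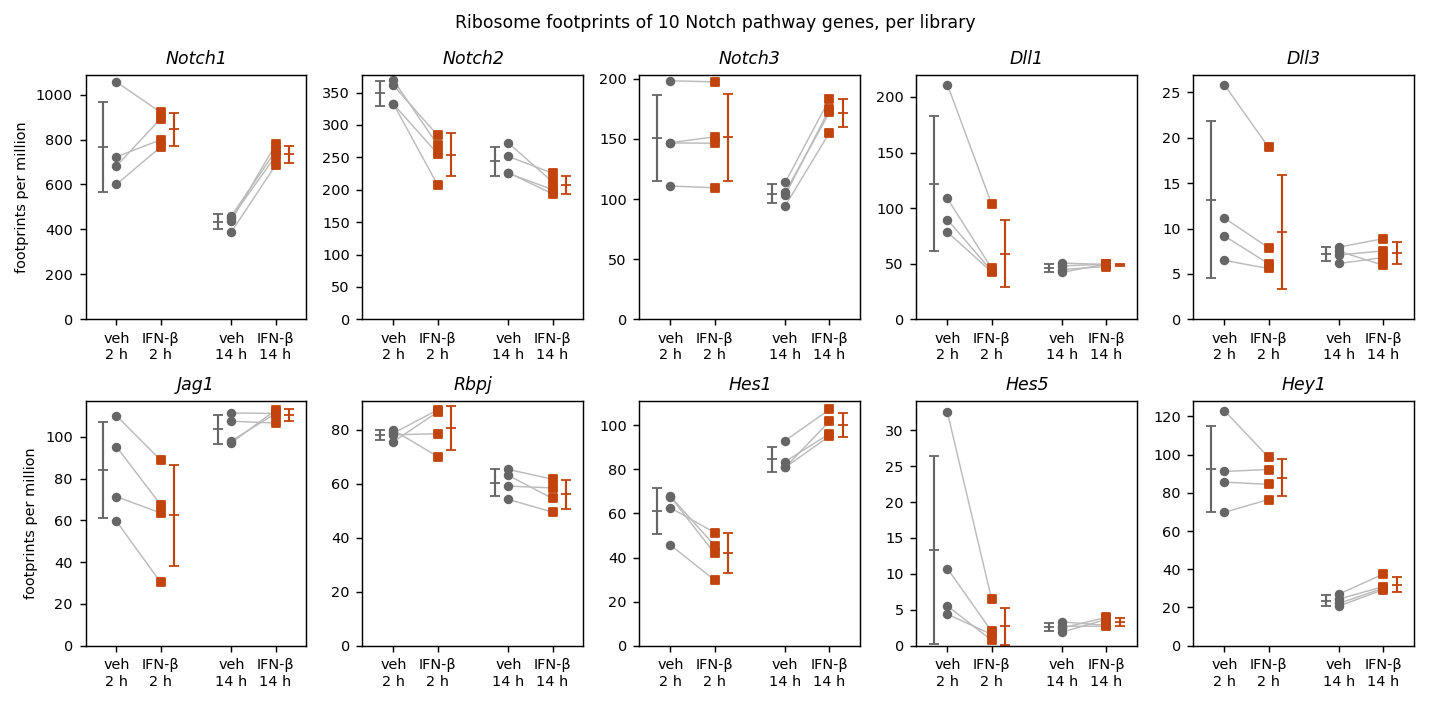
Footprint CPM of the 10 genes in each library, with vehicle (circles) and IFN-β (squares) at 2 h and 14 h, grey lines between cultures of one number, and mean ± SD beside the points (n = 4). At 2 h all 4 lines fall for Hes5, Dll1, Dll3, Jag1, Hes1 and Notch2, and at 14 h all 4 rise for Notch1, Notch3, Hes1 and Hey1.

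After 14 h the picture was another one. Footprints of 5 of the 10 genes were called, 4 higher (Notch1, Notch3, Hes1 and Hey1) and 1 lower (Notch2). Of all 12113 genes tested 52.5% were called, 26.2% higher and 26.3% lower, so the number of calls was near the background. In the 4 higher genes every treated library lay above every vehicle library, as in 23.5% of all genes, and all 4 pairs were higher, as in 34.7%. The same 5 genes were called with the block, where 62.8% of all genes were. The median log2 fold change of the 10 genes was 0.15, beside 0.00 over all genes tested. The SD over the vehicle libraries was 6.80% to 22.6% of the mean, against 2.31% to 98.5% at 2 h, and was the smaller share for 8 of the 10 genes, all but Notch2 and Rbpj.

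Notch1, a receptor linked to the upkeep of activated NSCs, was at 439.5, 388.9, 459.9 and 451.9 CPM with vehicle in cultures 1 to 4 at 14 h and at 777.9, 685.9, 748.6 and 726.0 with IFN-β. Every treated library lay above every vehicle library, and the log2 fold change was 0.74 ± 0.07 (adjusted p = 8.5e-07). Notch3, a receptor also known from vascular mural cells, was at 113.9, 94.6, 105.9 and 103.4 with vehicle and 183.3, 155.3, 172.2 and 175.1 with IFN-β, again without overlap, with a log2 fold change of 0.70 ± 0.07 (adjusted p = 4.1e-06).

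Notch2 was at 251.5, 226.4, 225.4 and 272.3 CPM with vehicle and 225.5, 193.7, 200.3 and 212.1 with IFN-β. All 4 pairs were lower and the groups overlapped by a narrow margin. The change was -0.25 ± 0.07 on the log2 scale (adjusted p = 0.0135), and the call was lost without the treated culture 2 (-0.21, adjusted p = 0.0518) or the vehicle culture 4 (-0.18, adjusted p = 0.0509). With the block it was -0.25 ± 0.04 (adjusted p = 1.2e-05).

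Of the targets, Hes1 was at 93.0, 80.9, 83.5 and 80.9 CPM with vehicle and 107.2, 95.1, 96.2 and 101.8 with IFN-β, all treated libraries above all vehicle libraries. It rose by a log2 fold change of 0.23 ± 0.07 (adjusted p = 0.0126). Hey1 was at 22.2, 20.8, 24.4 and 27.1 with vehicle and 30.2, 29.4, 30.9 and 37.5 with IFN-β, and rose by 0.43 ± 0.11 (adjusted p = 0.004) on the log2 scale. Hes5 was read with only 12 to 34 footprints per library at 14 h, at 1.89 to 3.32 CPM with vehicle and 2.72 to 3.93 with IFN-β. Its log2 fold change was 0.31 ± 0.23 (adjusted p = 0.267).

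The ligands gave no call at 14 h. Dll1 was at 42.4 to 50.6 CPM in vehicle and 47.5 to 49.7 in treated cultures, with a log2 fold change of 0.07 ± 0.07 (adjusted p = 0.423). Jag1 gave 0.08 ± 0.06 (adjusted p = 0.287) and Dll3 0.00 ± 0.16 (adjusted p = 0.993) on the same scale. All 3 ligands overlapped between the groups.

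**Figure D3:**
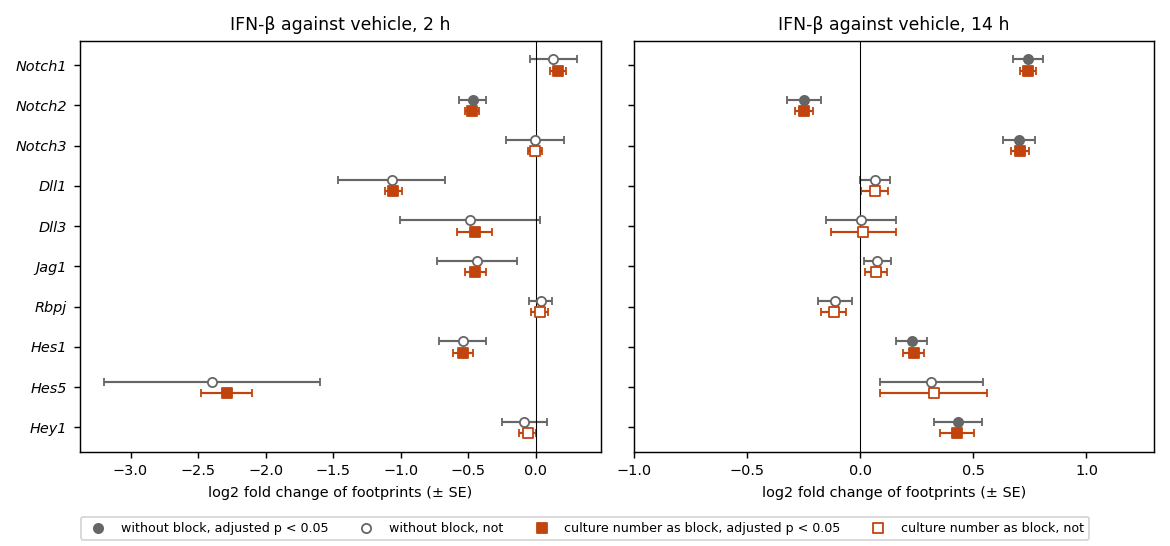
Log2 fold change of footprints, IFN-β over vehicle, of the 10 genes at 2 h (left) and 14 h (right), with bars of ± 1 SE, without (circles) and with (squares) the culture number as a block, filled where the adjusted p is under 0.05. At 2 h the estimates of both models nearly coincide while the bars of Hes5 shrink from 0.80 to 0.19, and at 14 h the same 5 genes are filled in both.

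The change at 14 h was then compared with the change at 2 h directly, by the interaction term of a model of the 16 footprint libraries. As no label ties the cultures of the 2 times, exposure time and set of cultures cannot be told apart in these differences or in those below. Of the 10 genes 4 were called, all higher at 14 h than at 2 h, where 30.9% of 12508 genes were called and 15.4% were higher. They were Hes5 (difference of log2 fold changes 2.73 ± 0.93, adjusted p = 0.0354), Hes1 (0.78 ± 0.19, adjusted p = 0.0064), Notch3 (0.72 ± 0.23, adjusted p = 0.0289) and Notch1 (0.62 ± 0.19, adjusted p = 0.0227). Dll1 differed by 1.15 ± 0.43 (adjusted p = 0.0508), Hey1 by 0.52 ± 0.21 (adjusted p = 0.071), Jag1 by 0.52 ± 0.31 (adjusted p = 0.223), Dll3 by 0.51 ± 0.59 (adjusted p = 0.541), Notch2 by 0.23 ± 0.13 (adjusted p = 0.184) and Rbpj by -0.14 ± 0.11 (adjusted p = 0.368). With the block, 9 were called, all higher and all but Rbpj, where 28% of all genes were higher. Among them Dll1 gave 1.12 ± 0.09 (adjusted p = 2.1e-11) and Hes5 2.62 ± 0.32 (adjusted p = 7e-08).

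Without both cultures numbered 3 and without the block, 6 genes were called higher (Notch1, Notch3, Dll1, Hes1, Hes5 and Hey1), where 20.6% of all genes were higher. The calls of Notch1 and Hes1 held without any single library. That of Notch3 was lost without the 14 h treated culture 1, the 14 h vehicle culture 2 or the 2 h treated culture 2, 5 or 6 (adjusted p = 0.05 to 0.0584). That of Hes5 was lost without the 14 h vehicle culture 1, 2 or 4, the 14 h treated culture 1 or 4, the 2 h vehicle culture 3 or the 2 h treated culture 2, 5 or 6 (adjusted p = 0.05 to 0.0722), and its difference was 1.79 without the vehicle culture 3. Dll1 was called without the 2 h vehicle culture 2 or 5 or the 2 h treated culture 3 (adjusted p = 0.0019 to 0.0397), and Hey1 without the 2 h vehicle culture 2 or the 2 h treated culture 3 (adjusted p = 0.018 and 0.0405).

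The wider pathway was followed through 60 other genes, written as lists by role from general knowledge. At 2 h, 50 of them were tested and 2 were higher and 4 lower without the block (12%, against 7.25% of all genes), or 7 higher and 14 lower with it (42%, against 29.2%). Their median log2 fold change was -0.02, as over all genes. At 14 h, 18 of 50 were higher and 7 lower, 50% against 52.5% of all genes, with a median of 0.09. Between the times, 12 of 52 differed upwards and 5 downwards, 32.7% against 30.9% of all genes. The remaining receptor, Notch4, and most of the other ligands (Dll4, Jag2, Dlk2) had too few footprints to be tested at either time.

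The enzymes that sugar-coat Notch receptors were led by Lfng, whose fringe activity shifts receptors towards Delta ligands. Lfng was at 327.8 to 410.5 CPM with vehicle at 2 h and at 159.2 to 209.9 with IFN-β, without overlap, and fell by 1.00 on the log2 scale (SE 0.11, adjusted p = 0.0006). At 14 h it was at 237.5 to 287.0 and 237.0 to 281.8, with a log2 fold change of 0.00 ± 0.07 (adjusted p = 0.974). The difference between the times was 1.00 ± 0.13 (adjusted p = 4.5e-05). Of this list of 5 genes, 1 was called lower at 2 h (2 with the block) and 0 at 14 h by edgeR, beside 2.01% of all genes lower at 2 h, 13.4% with the block, and 52.5% called at 14 h.

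Of the other targets, 3 of 7 were tested at 2 h (Nrarp, Hes6 and Hey2), of which 1 was lower without the block and all 3 with it, beside 2.01% and 13.4% of all genes. Hey2, read with a mean of only 9.75 footprints, was singled out after its values were seen. It passed the filter on low counts only through its vehicle libraries, with 10 to 24 footprints against 2 to 8 with IFN-β. Its lower call was thus partly fixed by the filter, and it adds no support to this count or to that of all other pathway genes. Nrarp, a feedback inhibitor that Notch induces, fell at 2 h from 5.59 to 9.50 CPM with vehicle to 2.93 to 4.36 with IFN-β, without overlap. Its log2 fold change was -1.07 ± 0.22 (adjusted p = 0.0178), and at 14 h it was -0.08 ± 0.23 (adjusted p = 0.807). Nrarp had a mean of 42.4 footprints, under the limit of 50 for naming, and was singled out after its values were seen. Hes6, which counteracts Hes1 and promotes differentiation, was at 49.0 to 80.7 CPM in vehicle and 33.0 to 52.5 in treated cultures of 2 h, all 4 pairs lower, with a log2 fold change of -0.69 ± 0.19 (adjusted p = 0.0644), and -0.69 ± 0.07 (adjusted p = 1.1e-08) with the block. At 14 h it rose by 0.27 ± 0.10 (adjusted p = 0.0314), and the difference between the times was 0.97 ± 0.23 (adjusted p = 0.0041).

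Among 13 genes of endocytosis and turnover, 1 was higher and 2 were lower at 2 h, and 8 were higher and 1 lower at 14 h, beside 7.25% and 52.5% of all genes called. With the block, 1 was higher and 4 lower at 2 h, and 9 higher and 1 lower at 14 h, beside 29.2% and 62.8%. The gene with the largest rise, Dtx3l, shares the Deltex name but is known as an interferon-induced ubiquitin ligase and partner of Parp9, and it rose by 4.95 ± 0.23 (adjusted p = 2e-06) at 2 h and 5.67 ± 0.10 (adjusted p = 5.6e-14) at 14 h. Dtx4, a Deltex ligase, fell at 2 h from 72.2 to 77.1 CPM to 40.7 to 48.1, with a log2 fold change of -0.78 ± 0.08 (adjusted p = 0.00024). At 14 h it rose from 59.2 to 69.6 CPM to 87.0 to 107.9, with a log2 fold change of 0.56 ± 0.08 (adjusted p = 4.6e-05). Dtx1 gave -0.93 ± 0.25 (adjusted p = 0.0563) at 2 h, and -0.92 ± 0.10 (adjusted p = 4.1e-08) with the block. Fbxw7, the ligase subunit that marks the cleaved receptor for decay, fell by 0.66 (SE 0.15, adjusted p = 0.0259) at 2 h. At 14 h Numbl (1.10), Dtx1 (0.97), Neurl1a (0.60), Dtx3 (0.54), Mib2 (0.43) and Dtx2 (0.30) were called higher on the log2 scale and Neurl1b (-0.61) lower.

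Of 10 genes of receptor processing and cleavage, 0 were called at 2 h by edgeR (3 lower with the block), and 3 were higher and 2 lower at 14 h. Of all genes 7.25% were called at 2 h, 29.2% with the block and 52.5% at 14 h. Among the subunits of γ-secretase at 14 h, Ncstn rose by 0.62 ± 0.05 (adjusted p = 1.9e-07) and Aph1a by 0.19 ± 0.07 (adjusted p = 0.0413), whereas Psenen fell by 1.10 (SE 0.09, adjusted p = 5.2e-07), from 32.3 to 37.7 CPM to 14.3 to 17.7. The proprotein convertase Furin rose by 0.28 ± 0.10 (adjusted p = 0.0327) and the protease Adam17 fell by 0.16 (SE 0.06, adjusted p = 0.0291). The non-canonical ligand Dner fell at 14 h by 0.52 (SE 0.07, adjusted p = 3.2e-05).

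Of 8 coactivator genes, 7 were tested, with 0 called at 2 h by edgeR (2 higher and 1 lower with the block) and 4 higher and 1 lower at 14 h, beside the same 7.25%, 29.2% and 52.5% of all genes. The acetyltransferase gene Kat2b rose at 14 h from 19.8 to 22.2 CPM to 56.1 to 58.7, a log2 fold change of 1.46 ± 0.07 (adjusted p = 1.2e-09). Kat2a (0.34), Crebbp (0.22) and Ep300 (0.16) were higher and Snw1 (-0.19) lower on the same scale. Of 11 corepressor genes, 1 was called at 2 h and 4 at 14 h, again beside 7.25% and 52.5%. With the block, 4 were higher and 1 lower at 2 h, and 3 higher and 4 lower at 14 h, beside 29.2% and 62.8% of all genes called. Ctbp2 rose at 2 h by 0.55 ± 0.12 (adjusted p = 0.0261). At 14 h Cir1 (0.49) and Spen (0.48) were higher and Hdac2 (-0.55) and Ctbp1 (-0.16) lower.

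**Figure D4:**
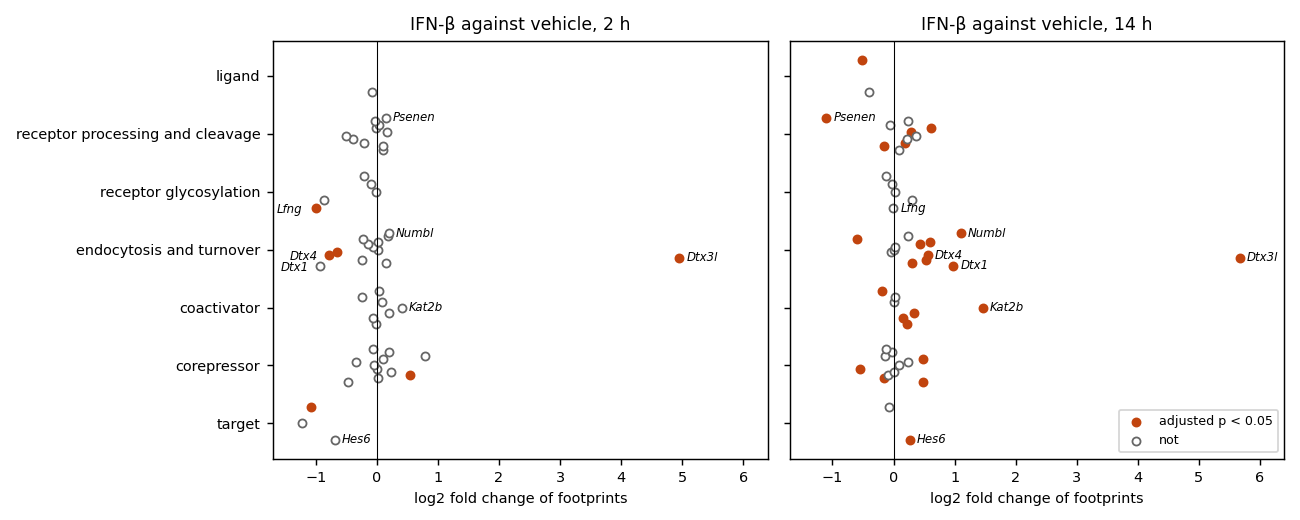
Log2 fold change of footprints, IFN-β over vehicle without the block, of the other pathway genes tested, by role, at 2 h (left) and 14 h (right), each point a gene and filled where the adjusted p is under 0.05. Lfng, Dtx4, Fbxw7 and Nrarp are the filled points to the left at 2 h, Dtx4, Dtx1 and Numbl are among those to the right at 14 h, and Dtx3l stands far to the right at both times with 4.95 and 5.67.

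The genes whose footprints varied most like 3 of the members were sought over the 16 footprint libraries, after the mean of each time was taken out, among 9944 genes with a mean of at least 50 footprints at both times. For Dll1 they were Adgrg1 (Pearson r = 0.98), Map1a (0.97) and Arhgef26 (0.97). For Hes5 they were Map1a (0.97), Adgrg1 (0.96) and Ackr3 (0.96), with Dll1 the next at 0.95. For Notch1 they were Capn5 (0.95), Khnyn (0.95) and Lrig1 (0.94), and Notch3 stood at 0.91. These are descriptions: the libraries share treatment and culture number, and the cultures numbered 3 carry much of the spread of Dll1 and Hes5.

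Total RNA could say little on these genes. The 10 members had 0 to 323 counts per total RNA library, and even Actb had 47 to 854, against 18780 to 73117 footprints. The kit of these libraries keeps the strand, the setting used for counting was not given in the sources used here, and reads of a gene and of a partner on the other strand cannot be told apart. Each of 4 members overlaps such a partner in its exons and had fewer counts than it in every library, a comparison chosen after the values were seen. Notch1 overlaps a further gene, Gm13568, by 414 bases of exons, which had 0 counts in every library and is not meant by this. At 2 h with vehicle, Hes5 had 4 to 21 counts and Gm20421 on the other strand 255 to 1906, and Dll1 had 25 to 113 counts and A930024N18Rik 1268 to 4001. Total RNA and translational efficiency (TE, footprints relative to total RNA) are therefore given below with this limit, and the part of the strand in them was not tested. With the setting unknown, a count may not be of the member's own RNA. This holds also for members without such a partner, such as Notch2 and Hes1.

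In total RNA at 2 h, 6 of the 10 genes were tested and 0 were called by edgeR or by DESeq2, where 0.799% of all genes were called, and 0 had an unadjusted p under 0.05. Dll1 had 36, 113, 25 and 45 counts with vehicle in cultures 2, 3, 5 and 6 and 40, 43, 39 and 28 with IFN-β. In CPM these were 7.87, 17.97, 7.45 and 7.11 with vehicle and 6.19, 6.87, 6.71 and 6.80 with IFN-β, so that every treated library lay below every vehicle library, as in 2.05% of all genes. This separation rests on the TMM factor of vehicle culture 5, 0.426 against 1.03 to 1.35 in the other total RNA libraries of 2 h. On total counts alone that culture, with 25 counts in the largest library, would lie below every treated library. On the log2 scale the fold change was -0.64 ± 0.33 (adjusted p = 0.808). Gm20421, which overlaps 433 bases of Hes5 exons, had 352, 1906, 255 and 570 counts with vehicle and 95, 387, 128 and 225 with IFN-β. Between the groups the log2 fold change was -1.86 ± 0.57 (adjusted p = 0.298, unadjusted p = 0.0067). A930024N18Rik, which overlaps 867 bases of Dll1 exons, had 1721, 4001, 1268 and 2201 counts with vehicle and 990, 1727, 1239 and 1075 with IFN-β, with a log2 fold change of -0.96 ± 0.31 (adjusted p = 0.351, unadjusted p = 0.0091). Neither partner passed the adjusted threshold. In CPM both lay lower in every treated than in every vehicle library, Gm20421 at 14.7 to 61.9 against 76.0 to 303.2 and A930024N18Rik at 153.2 to 276.1 against 347.8 to 636.4. Both separations also rest on the TMM factor of vehicle culture 5. On total counts alone that culture would not lie above all treated libraries for either partner.

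In total RNA at 14 h, 5 genes were tested and 1 was called, Notch1, where 6.3% of all genes were called. Notch1 had 58, 45, 13 and 39 counts with vehicle in cultures 1 to 4 and 95, 94, 84 and 97 with IFN-β. In CPM it was at 16.1 to 23.9 and 28.5 to 46.1, all treated above all vehicle libraries, as in 7.01% of all genes, and its log2 fold change was 0.83 ± 0.22 (adjusted p = 0.0362). The call was lost without the vehicle culture 1, 3 or 4 or the treated culture 1, 2 or 4 (adjusted p = 0.0642 to 0.136) and with library sizes from total counts alone (adjusted p = 0.299). Its partner 0610009E02Rik, with 1068 bases of shared exons, was at 185 to 853 counts in vehicle and 1048 to 1421 in treated cultures, and its change on the log2 scale was 0.57 ± 0.23 (adjusted p = 0.175). Gm17276, the partner of Notch3, gave 0.19 ± 0.25 (adjusted p = 0.74), beside -0.15 ± 0.45 (adjusted p = 0.896) for Notch3 itself.

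**Figure D5:**
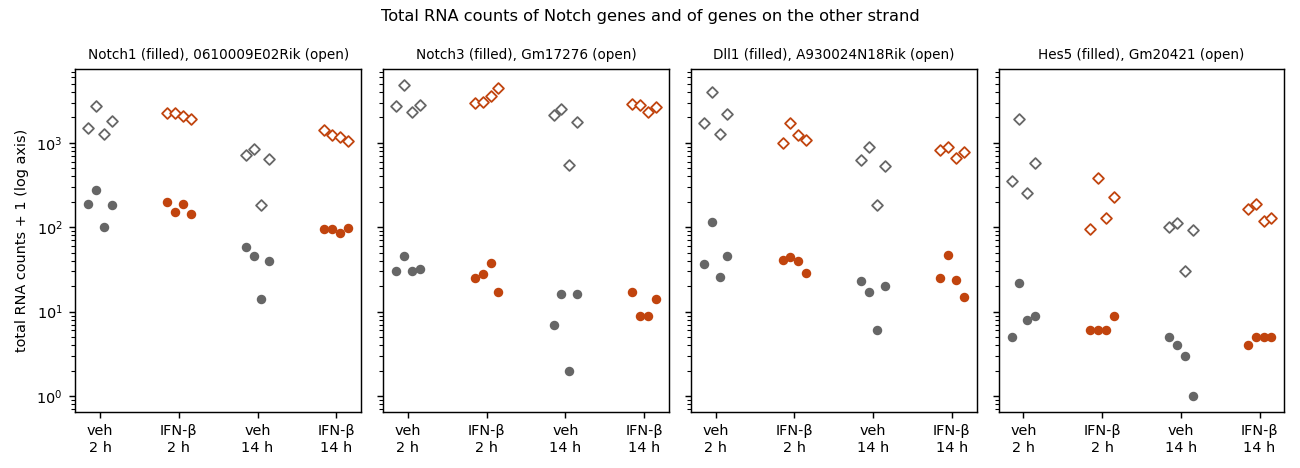
Total RNA counts plus 1 (log axis) of 4 members (filled circles) and of the gene on the other strand (open diamonds) in each library, with vehicle (grey) and IFN-β (orange) at 2 h and 14 h. In every library the partner has more counts than the member, and Gm20421 is at 255 to 1906 with vehicle against 95 to 387 with IFN-β at 2 h.

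For TE, called at an adjusted p of 0.1, 0 of the 10 genes were called at 2 h or at 14 h by edgeR without the block, where 0.815% and 8.45% of all genes were. At an unadjusted p under 0.05 there were 0 at 2 h and 2 at 14 h, Notch2 (log2 change of TE -0.58 ± 0.24, adjusted p = 0.191) and Hes1 (1.52 ± 0.57, adjusted p = 0.133). DESeq2 called 0 at 2 h and these 2 at 14 h (adjusted p = 0.0741 and 0.0258). With the block, Hes1 was called at 14 h (1.43 ± 0.46, adjusted p = 0.0809), from 0 to 12 total RNA counts per library. That model also pairs total RNA libraries by number, whose deviations correlated at only -0.087 to 0.53 at 14 h. Hes5 at 2 h gave -1.44 ± 1.08 (adjusted p = 0.952), a spread too wide to tell its footprint change from a change of its RNA.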

How the data were processed

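Footprints and total RNA of NSCs were analysed from raw counts per gene, deposited by the authors without normalization. The authors trimmed reads with Trim Galore 0.4.4, mapped them with Bowtie 0.12.7 to the mm10 Ensembl transcriptome, removed duplicates and counted with SummarizeOverlaps in Union mode, footprints in the CDS and total RNA over the gene body. Removal of duplicates can lower the counts of short, highly read genes. Symbols, positions and CDS lengths came from GENCODE M21, and 22282 of 23035 footprint genes and 37693 of 39017 total RNA genes matched.

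edgeR 4.0.16 in R 4.3.3 was used with TMM scaling and the two-sided quasi-likelihood test on genes that reached 10 counts in 4 or more of the compared libraries, adjusted by Benjamini-Hochberg over all genes tested. Calls were made at 0.05, and at 0.1 for TE, the interaction of library kind and treatment. Its fits were tested on simulated data. Alternatives were DESeq2 1.42.0, library sizes alone, other filters (none, or a mean of 50 counts), the culture number as a block, and leaving out libraries.

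Same-numbered treated and vehicle cultures deviated together in footprints: their correlations were 0.72, 0.86, 0.47 and 0.63 at 2 h and 0.48, 0.29, 0.26 and 0.52 at 14 h, so the numbers were taken as pairs there. In total RNA they ranged from -0.66 to 0.53, and the numbers were not taken as pairs there. The block alternatives of total RNA and TE still fit the number to those libraries. The study's methods describe a replicate as a different mouse or a culture from a different mouse, and the labels do not name the animals. The paper gives the long exposure as both 14 h and 16 h, and the labels' 14 h was used.

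Named genes were the 10 members, other pathway genes called in footprints at 2 h or 14 h with a mean of at least 50 footprints, and the 3 genes most like Notch1, Dll1 and Hes5. Members and lists were chosen with earlier results of these data known.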

Additional observations from a re-analysis of the deposited data

Results flagged for a closer look

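The footprint change at 14 h differed from that at 2 h, by the test of the difference itself in edgeR, for 4 of the 10 genes: Notch1 by 0.62, Notch3 by 0.72, Hes1 by 0.78 and Hes5 by 2.73 on the log2 scale. In Hes1 and Hes5 all 4 pairs were lower at 2 h, and at 14 h 4 and 3 of the 4 pairs were higher. In Notch1 and Notch3 all 4 pairs were higher at 14 h. Exposure time and set of cultures cannot be told apart in these differences.

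A library stood apart from the other 3 of its group in 3 of 40 groups of footprint values, where chance gives about 1 in 20. With IFN-β at 2 h, Dll1 was at 103.8 CPM in culture 3 against 42.6 to 45.9 in the others, and Dll3 at 18.9 against 5.60 to 7.88. Vehicle culture 3 was also the highest for both genes. With IFN-β at 14 h, Dll1 was at 47.5 CPM in culture 1 against 49.4 to 49.7, a gap that is small beside the level.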

How the results depend on the processing

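The number of the 10 genes called moved most with the replicate block for footprints at 2 h and for the difference between the times. For footprints at 2 h it was 1, with the block 7, with DESeq2 2, and 4 without both cultures numbered 3, and with the block and 1 pair left out 6 (pairs 2, 5 and 6) or 7 (pair 3). Leaving out 1 library gave 0 to 2. For footprints at 14 h it was 5, and 4 to 5 with 1 library left out. For the difference between the times it was 4, with the block 9, and 8 with the block and without both cultures numbered 3, and 2 to 6 with 1 library left out. Dll1 joined the calls of the difference with total counts alone (adjusted p = 0.0495), DESeq2 (0.0279) and no filter (0.0461), each giving 5, and under the filter at a mean of 50 counts (0.0495), which gave 4 because it left Hes5 untested. For total RNA at 14 h it was 1, and 0 with total counts alone or with a mean of at least 50 counts, and 0 to 1 with 1 library left out. For TE at 14 h it was 0, with DESeq2 2, with the block 1, and 0 to 1 with 1 culture left out. Total RNA and TE at 2 h stayed at 0 throughout. Leaving out both cultures of one number was chosen after seeing the data. Over all genes, footprint calls went from 878 to 3538 at 2 h and from 3867 to 6944 for the difference with the block. Of the other counts of members, the replicate block changed only that for TE at 14 h, from 0 to 1.

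Small, uncalled changes turned their sign. Rbpj at 2 h became -0.0064 with total counts alone and -0.0090 and -0.017 with the block and without pair 5 or 6. Notch3 at 2 h became 0.0030 and 0.0038 with the block and without pair 2 or 6. Hey1 at 2 h became 0.027 without cultures 3 and 0.031 with the block added. Dll3 at 14 h became -0.0087 with total counts alone and -0.013 without a filter. With 1 library left out, the log2 fold changes at 2 h ranged from -0.17 to 0.16 for Notch3, -1.03 to 0.069 for Dll3, -0.0048 to 0.10 for Rbpj and -0.19 to 0.093 for Hey1. That of Dll3 ranged from -0.11 to 0.10 at 14 h and its difference between the times from -0.042 to 1.04. The causes were not tested. Hes5 had 12 to 34 footprints per library at 14 h, and the 10 genes had 0 to 323 total RNA counts.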
